A study of Mus musculus with 6 samples.

Results

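Collagens other than those typical of cartilage, and the enzymes and chaperones that process collagen, were followed in osteal macrophages of ovariectomized (OVX) and sham-operated mice. The set is defined by gene symbol, and it was chosen with earlier results of these data known. It takes the collagen chain genes except Col2a1, Col9a1 to Col9a3, Col10a1, Col11a1 and Col11a2, and adds the prolyl 4-hydroxylase alpha subunits, the lysyl hydroxylases, the lysyl oxidase family, Serpinh1, Bmp1, Pcolce, P3h1 and Crtap. It holds 41 of 11815 listed genes, 25 collagen chains and 16 enzymes and chaperones, with 118 of 23115 listed transcripts. None of these genes passed the adjusted threshold between OVX and sham. After scaling between libraries, Loxl2, Col6a2, Col16a1, Col12a1 and P4ha1 were higher in every OVX library than in any sham library. They were 16.7% of the 30 members tested, against 7.42% of all genes tested. Col3a1, Col4a1 and Col4a2 were lower in every OVX library (10% against 7.8%). Without the scaling, only Col16a1 stayed higher in every OVX library.

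A collagen molecule is 3 chains wound into a triple helix, and the chains of 1 type are often products of several genes. In the endoplasmic reticulum prolyl hydroxylases stabilize the helix, lysyl hydroxylases prepare sites for crosslinks, and the chaperone HSP47 holds the folded helix. Outside the cell, proteinases remove the ends of fibrillar procollagens and lysyl oxidases join the molecules covalently. Osteoblasts and fibroblasts are the main makers of fibrillar collagen in bone, while type IV collagen belongs to basement membranes, such as those around vessels, and macrophages are known to make some type VI collagen.

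The libraries came from osteal macrophages of female BALB/c mice, 3 libraries of OVX mice and 3 of sham mice, collected 4 weeks after surgery. Ovariectomy removes the main source of estrogen and models the postmenopausal state, and all animals had an operation and no other treatment. Femurs and vertebrae were stripped of periosteum, femoral marrow was flushed out, the bone was digested with trypsin and then collagenase D, and cells positive for CD11b with F4/80 or CD68 were sorted. The study's methods name more animals per condition than there are libraries, but do not say how many went into a library or whether the replicates were separate animals. The p-values therefore cover the spread between these libraries alone, and that spread may be technical.

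Values are TPM, in which a transcript's reads are corrected for its length and for the library's size, summed over the listed transcripts of a gene and scaled between libraries. OVX replicate 3 stood apart: its listed transcripts covered 66.3% of the full TPM scale, against 80.5% to 83.0% in the other 5 libraries, and its mean correlation with the others was 0.946, against 0.971 to 0.974. TPM keep no read counts, so the depth behind a value is unknown and no counting interval is given. All transcripts annotated in GENCODE M21 are listed for 10 of the 41 genes, so the value of the other genes can miss part of their RNA, and a listed 0 can be a failed estimate. In bulk RNA, fewer cells of a type and less RNA per cell cannot be told apart.

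Col4a1 and Col4a2, the chains of the common type IV collagen of basement membranes, are shown first by sequence because they start back to back, and their levels below sham lay close together. The gene bodies overlap by 22 bases at their starts on chromosome 8 on opposite strands, and the RefSeq promoter windows (250 bases before to 50 after the start, build GRCm38.p6) share 78 bases, given in capitals on each gene's own strand, 5′ to 3′. The Col4a1 window is chr8:11312777-11313076 on the minus strand and the Col4a2 window is chr8:11312555-11312854 on the plus strand.
Col4a1: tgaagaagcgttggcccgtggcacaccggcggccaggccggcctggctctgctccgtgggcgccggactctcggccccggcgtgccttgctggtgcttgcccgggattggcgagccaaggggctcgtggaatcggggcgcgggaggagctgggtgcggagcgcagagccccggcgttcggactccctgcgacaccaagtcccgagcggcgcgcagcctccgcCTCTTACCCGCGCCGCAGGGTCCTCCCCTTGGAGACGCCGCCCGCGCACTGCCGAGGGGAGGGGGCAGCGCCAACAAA
Col4a2: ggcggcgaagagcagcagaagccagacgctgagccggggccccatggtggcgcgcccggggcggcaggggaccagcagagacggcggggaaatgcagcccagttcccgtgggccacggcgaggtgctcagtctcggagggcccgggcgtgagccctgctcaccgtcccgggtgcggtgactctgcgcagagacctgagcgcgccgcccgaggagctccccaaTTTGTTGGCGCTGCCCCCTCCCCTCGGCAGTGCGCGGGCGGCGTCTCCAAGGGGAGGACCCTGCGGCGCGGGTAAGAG
The windows hold 74.0% and 73.7% G and C for Col4a1 and Col4a2, where the median of 32851 RefSeq promoter windows is 52.7%. The GC box letters GGGCGG, searched on both strands, matched 1 time in the Col4a1 window and 3 times in the Col4a2 window, with a match in the shared capitals, and 35.7% of all windows hold them. CCAAT matched 1 time in each window (37.4% of all windows) and TATAAA did not match in either (13.6% of all windows). Of the 29 members with a RefSeq window, 23 held the GC box letters in at least 1 window, 10 held CCAAT and 4 held TATAAA. These counts are per gene, over any of its windows, so they cannot be set against the shares of single windows. These are matches of letters, not measured binding sites.

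Of the 41 genes, 30 had a mean of at least 1 scaled TPM and were tested, 17 collagen chains and 13 enzymes and chaperones. By limma with Benjamini-Hochberg adjustment over all genes, 0 of the 30 passed, against 1 of 8184 genes tested overall (0.0122%), and the lowest adjusted p of a member was 0.663, for Loxl2. At an unadjusted p of 0.05, 4 members were higher in OVX (13.3% of the 30, against 3.46% of all genes tested) and 3 were lower (10% against 3.42%). Every OVX library lay above every sham library for 5 members (16.7% against 7.42% of all genes) and below for 3 (10% against 7.8%), while the groups overlapped for the other 22. The directions were mixed, with 16 members above 0 and 14 below, and the median log2 fold change was 0.03 for the members and -0.01 for all genes. Without OVX replicate 3, which leaves fewer libraries to separate, every OVX library was above sham for 8 members (26.7%, against 13.3% of all genes) and below for 8 (26.7% against 13%), and again 0 passed. On the TPM as deposited all genes had a median log2 fold change of -0.15. There 1 member, Col16a1, was above sham in every OVX library (3.33%, against 3.57% of all genes). Below sham in every OVX library were 7 (23.3% against 13.1%).

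**Figure D1:**
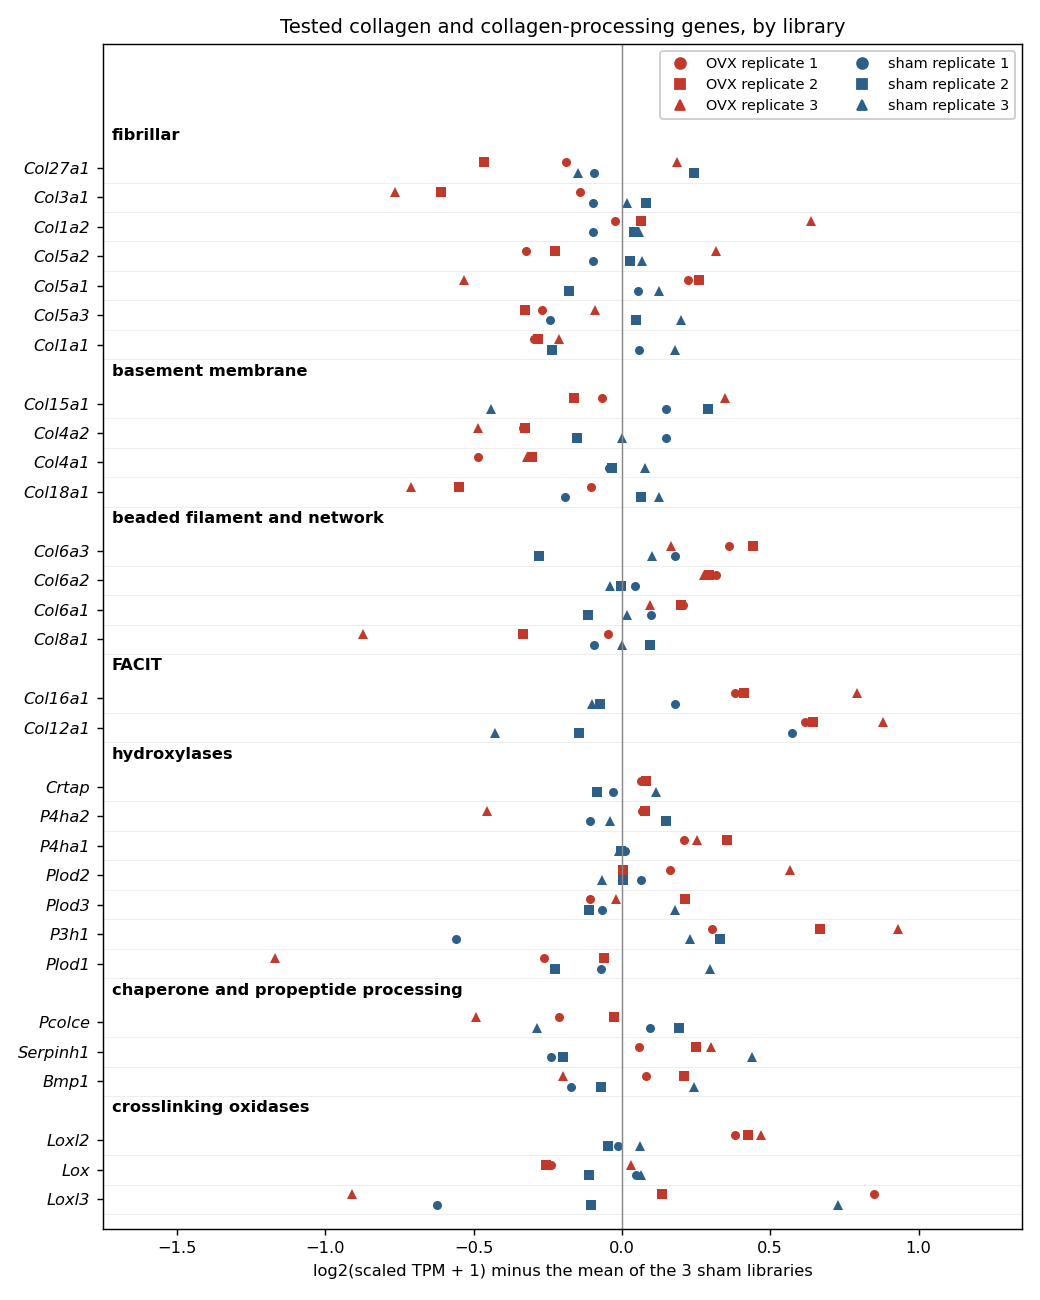
Each tested gene's log2(scaled TPM + 1) in the 3 OVX libraries (red, upper row of each gene) and the 3 sham libraries (blue, lower row), as the difference from the sham mean, grouped by role and ordered by level within a role. Loxl2, Col6a2, Col16a1, Col12a1 and P4ha1 have all red points to the right of the blue ones, Col3a1, Col4a1 and Col4a2 to the left, and the triangles of OVX replicate 3 often lie farthest out.

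Fibrillar collagens carry the tensile strength of bone, skin and vessels. Of 7 tested chains, 6 had a log2 fold change below 0 and 1, Col1a2, above, with a median of -0.16. Of all 8184 genes tested, 4220 were below 0. Among the 6, Col5a1 was at -0.02, and only Col3a1 was below sham in every OVX library. Col3a1 (chromosome 1, 45311538 to 45349706, plus strand), the single chain of type III collagen of soft tissue and vessel walls, was at 16.7, 11.8 and 10.5 scaled TPM in OVX replicates 1, 2 and 3, against 17.2, 19.6 and 18.7 in sham replicates 1, 2 and 3. All OVX libraries were below sham, but OVX replicate 1 nearly reached the lowest sham library. The log2 fold change was -0.51 ± 0.19 (SE) measured on log2(scaled TPM + 1) values (limma adjusted p = 0.693), and it was -0.38 without OVX replicate 3. Its value divides almost evenly between a listed transcript of 5564 bases and one of 737 bases. The groups overlap for each of them taken alone, so they separate only in the sum. OVX replicate 3 was at 1.57 for the short one. For the long one it was at 8.89, inside the sham range of 8.01 to 9.05.

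Type I collagen, the main protein of bone matrix, is built from the products of Col1a1 and Col1a2. Col1a1 (chromosome 11, 94936224 to 94953042, plus strand) was at 1.23, 1.25 and 1.37 scaled TPM in OVX, against 1.85, 1.33 and 2.10 in sham, and OVX replicate 3 passed the lowest sham value. Col1a2 (chromosome 6, 4504814 to 4541544, plus strand) was at 12.2, 13.0 and 19.8 in OVX, against 11.5, 12.8 and 12.9 in sham. Its only clear excess over sham was in OVX replicate 3, and the log2 fold change of 0.23 ± 0.20 was 0.02 without that library. The listed level of Col1a1 was thus low beside that of its partner chain in all 6 libraries. Only 1 transcript of Col1a1 is listed, so the low value holds for that transcript.

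Col5a2, a chain of type V collagen that helps set fibril diameter, was at 10.6, 11.5 and 17.2 scaled TPM in OVX and 12.6, 13.9 and 14.3 in sham, with OVX replicate 3 above all sham libraries and the other 2 below. Col27a1, a fibrillar chain best known from cartilage although the gene set includes it, was at 19.4, 15.8 and 25.4 in OVX and 20.7, 26.4 and 19.9 in sham. Both groups spread widely for these 2 genes and overlapped. The sign of Col5a2 turned without OVX replicate 1 (0.05) or OVX replicate 2 (0.00), and that of Col27a1 turned without OVX replicate 2 (0.00). The other type V chains, Col5a1 and Col5a3, had means of 11.1 and 4.31 in OVX and 10.9 and 5.26 in sham, and overlapped as well.

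Basement membrane collagens lay mostly below sham, 3 of 4 tested, with a median log2 fold change of -0.38. Col4a1 (chromosome 8, 11198423 to 11312826, minus strand) was at 3.69, 4.32 and 4.27 scaled TPM in OVX, against 5.37, 5.41 and 5.94 in sham, for a log2 fold change of -0.37 ± 0.15 (limma adjusted p = 0.706). Col4a2 (chromosome 8, 11312805 to 11449287, plus strand) was at 4.50, 4.52 and 3.95 in OVX, against 6.69, 5.24 and 5.94 in sham, for a log2 fold change of -0.38 ± 0.16 (limma adjusted p = 0.706). The 2 chains stood at nearly equal levels and their OVX means were 0.734 and 0.726 times the sham means. Leaving out OVX replicate 3 gave -0.40 for Col4a1 and -0.33 for Col4a2, so the lower level of both did not rest on that library. The gene bodies overlap on opposite strands. The library kit keeps strand, but the sources used here do not say whether counting used it.

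Col18a1, whose product carries the endostatin domain, was at 3.97, 2.64 and 2.26 scaled TPM in OVX and 3.68, 4.59 and 4.82 in sham, and only OVX replicate 1 reached into the sham range. Col15a1, its closest relative, had means of 9.71 ± 2.09 in OVX and 9.54 ± 2.62 in sham (SD, n = 3 each). The X-linked type IV chains Col4a5 and Col4a6, whose gene bodies start 1308 bases apart, were both listed at 0 in all 6 libraries.

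Type VI collagen forms beaded microfilaments near cells, and its 3 chains were among the most abundant members. Col6a2 (chromosome 10, 76595762 to 76623630, minus strand) was at 31.2, 30.7 and 30.3 scaled TPM in OVX, against 25.7, 24.8 and 24.1 in sham. Each group was tight and the gap between them was larger than either spread, with a log2 fold change of 0.29 ± 0.12 (limma adjusted p = 0.706). Its neighbour Col6a1, 85161 bases away on the same strand, was at 24.5, 24.4 and 22.6 in OVX, against 22.7, 19.5 and 21.4 in sham, where the lowest OVX value was just under the highest sham value. On the TPM as deposited the log2 fold changes were 0.14 for Col6a2 and 0.01 for Col6a1, and the groups overlapped for both.

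Col6a3 (chromosome 1, 90765923 to 90843971, minus strand), the longest of the chains, had the highest mean of all members, with 62.5, 66.2 and 54.6 scaled TPM in OVX, against 55.0, 39.8 and 52.1 in sham. OVX replicate 3 lay within the sham range, and the log2 fold change of 0.32 ± 0.17 was 0.18 without sham replicate 2, the lowest library. Col8a1, a chain of the network-forming type VIII collagen of vessels and cornea, was far lower, with 2.18, 1.61 and 0.796 in OVX and 2.08, 2.51 and 2.29 in sham. Its lowest value was again OVX replicate 3, and the log2 fold change of -0.42 became -0.19 without it.

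The fibril-associated collagens with interrupted helices (FACIT) sit on the surface of fibrils, and both tested members were above sham. Col12a1 (chromosome 9, 79598991 to 79718831, minus strand), found in tendon, ligament and periosteum, was at 4.72, 4.82 and 5.86 scaled TPM in OVX, against 4.55, 2.37 and 1.77 in sham. Sham replicate 1 lay close under the OVX libraries while the other 2 sham libraries were well below, and the log2 fold change was 0.71 ± 0.27 (limma adjusted p = 0.693), the largest of any member. About 87.6% of the Col12a1 value is a listed coding transcript of 1784 bases, against 6.86% for the one of 11511 bases. The short one was above sham in every OVX library. The long one was low and overlapped, with means of 0.247 scaled TPM in OVX and 0.279 in sham. Col16a1 (chromosome 4, 130047840 to 130099283, plus strand) was at 22.3, 22.8 and 30.0 in OVX, against 19.2, 16.0 and 15.7 in sham, with a log2 fold change of 0.53 ± 0.17 (limma adjusted p = 0.673). It was 0.40 without OVX replicate 3, the highest library. This excess belongs to an 833-base transcript annotated as processed, not as coding, that made up 95.9% of the gene's value. The coding transcripts of Col16a1 were at 0.301, 1.21 and 0 in OVX and 0.498, 0.634 and 1.01 in sham, overlapping and too low to be tested by themselves.

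Among the hydroxylases, 5 of 7 tested genes were above sham and 2 below, and the median log2 fold change was 0.08. P4ha1 (chromosome 10, 59323296 to 59373304, plus strand), a catalytic subunit of prolyl 4-hydroxylase, was at 19.4, 21.6 and 20.1 scaled TPM in OVX, against 16.8, 16.6 and 16.6 in sham. The 3 sham libraries were nearly equal and every OVX library was above them, with a log2 fold change of 0.27 ± 0.13 (limma adjusted p = 0.715). On the TPM as deposited it was 0.12 and the groups overlapped. The alternative catalytic subunit P4ha2 was at 30.7, 31.0 and 21.1 in OVX and 27.1, 32.6 and 28.5 in sham. Here OVX replicate 3 alone was low, and the log2 fold change of -0.10 turned to 0.07 without it.

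Crtap, a helper protein of the prolyl 3-hydroxylase complex, was at 42.6, 43.1 and 43.2 scaled TPM in OVX and 39.8, 38.4 and 44.2 in sham, overlapping (log2 fold change 0.08 ± 0.13, or -0.08 on the deposited TPM). P3h1, the enzyme of the same complex, was at 7.09, 9.41 and 11.5 in OVX and 3.45, 7.24 and 6.70 in sham, where OVX replicate 1 lay just under the highest sham library. The log2 fold change of P3h1 was 0.63 ± 0.28, or 0.35 without sham replicate 1, and from its coding transcripts alone it was -0.03. Plod2, the lysyl hydroxylase that acts on the ends of the chains, was at 17.2, 15.3 and 23.2 in OVX and 16.1, 15.4 and 14.6 in sham, and only OVX replicate 3 was clearly high. Its log2 fold change of 0.24 ± 0.18 was 0.08 without that library and 0.37 without OVX replicate 2. The lysyl hydroxylase genes Plod1 and Plod3 had means of 4.42 and 12.7 in OVX and 6.35 and 12.5 in sham. Plod1 was lowest in OVX replicate 3, at 2.23, and its log2 fold change was -0.16 without that library in place of -0.50.

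Serpinh1, which encodes HSP47, was at 12.1, 14.0 and 14.5 scaled TPM in OVX and 9.66, 9.96 and 16.1 in sham. Sham replicate 3 was the highest of all 6 libraries, so the groups overlapped, and the log2 fold change of 0.20 ± 0.22 was 0.42 without it, but 0.08 and 0.10 without sham replicates 1 and 2. Pcolce, whose product enhances the removal of the C-terminal propeptide, was at 32.4, 37.0 and 26.5 in OVX and 40.3, 43.2 and 30.7 in sham. Both groups spread widely and its log2 fold change of -0.24 ± 0.19 was -0.12, -0.15 and -0.38 without OVX replicate 3, sham replicate 2 and sham replicate 3. Bmp1, the propeptide proteinase that Pcolce enhances, was near the limit for testing, with means of 1.19 in OVX and 1.14 in sham.

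Loxl2 (chromosome 14, 69609068 to 69695834, plus strand), a lysyl oxidase family enzyme known for crosslinking type IV collagen, had the lowest p of all members. It was at 20.3, 21.0 and 21.7 scaled TPM in OVX, against 15.2, 14.9 and 16.1 in sham. Both groups were tight and far apart relative to their spread, with an OVX mean 1.36 times the sham mean, a log2 fold change of 0.42 ± 0.13 (limma adjusted p = 0.663). With each library left out in turn, the log2 fold change stayed between 0.40 and 0.46. It was 0.27 on the TPM as deposited, where OVX replicate 3 fell just under sham replicate 3, so the groups overlapped. Lox, the founding member of the family, was at 7.61, 7.51 and 9.38 in OVX and 9.50, 8.41 and 9.61 in sham, an overlap with a log2 fold change of -0.15 ± 0.16. Loxl3 varied over a wide range inside both groups, 0.582 to 4.36 in OVX and 0.929 to 3.93 in sham.

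**Figure D2:**
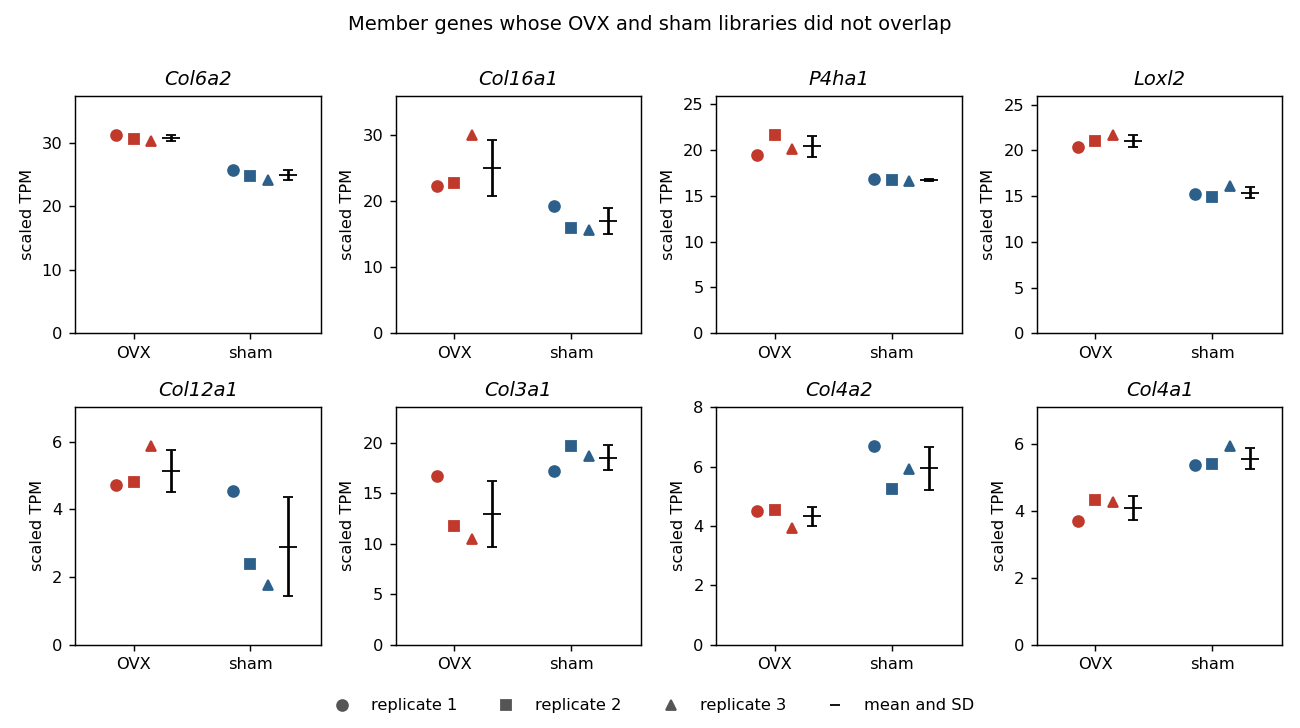
Scaled TPM in each of 3 OVX and 3 sham libraries (points, by replicate number) for the 8 genes whose groups did not overlap, with mean and SD as black bars and each axis starting at 0. Loxl2, Col6a2 and P4ha1 have tight groups, while in Col12a1 and Col3a1 the nearest libraries of the groups almost touch.

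A good part of the summed values came from transcripts that are not of protein-coding type. Of the 118 listed transcripts 74 are of protein-coding type and 28 are retained-intron transcripts, and 28 were listed at 0 in all 6 libraries. Over all members the share outside coding transcripts was 24.9%, 26.6% and 28.0% in OVX and 25.3%, 23.9% and 22.7% in sham, a similar share in every library. Within single genes OVX replicate 3 divided its signal otherwise. For Col6a3 the share was 53.4%, 55.8% and 9.69% in OVX and 58.5%, 38.4% and 60.6% in sham, since a retained-intron transcript of 646 bases was at 1.27 scaled TPM in OVX replicate 3 and at 30.0 and 30.5 in OVX replicates 1 and 2. Counting coding transcripts alone, Col6a3 was at 29.1, 29.2 and 49.3 in OVX, against 22.8, 24.5 and 20.6 in sham, so that every OVX library was above sham, with a log2 fold change of 0.61. The coding transcript of Crtap went the other way in the same library, with 24.4, 19.7 and 5.88 in OVX and 19.9, 17.3 and 23.6 in sham. Its retained-intron transcript was at 37.3 there, so the sum hardly showed it. The coding part of Pcolce was at 24.9, 26.0 and 10.8 in OVX and 28.8, 27.6 and 24.5 in sham, and that of P4ha2 at 27.8, 28.3 and 13.5 in OVX and 26.1, 30.1 and 27.3 in sham. For Col27a1 a processed transcript of 1485 bases made up 88.9% of the value.

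**Figure D3:**
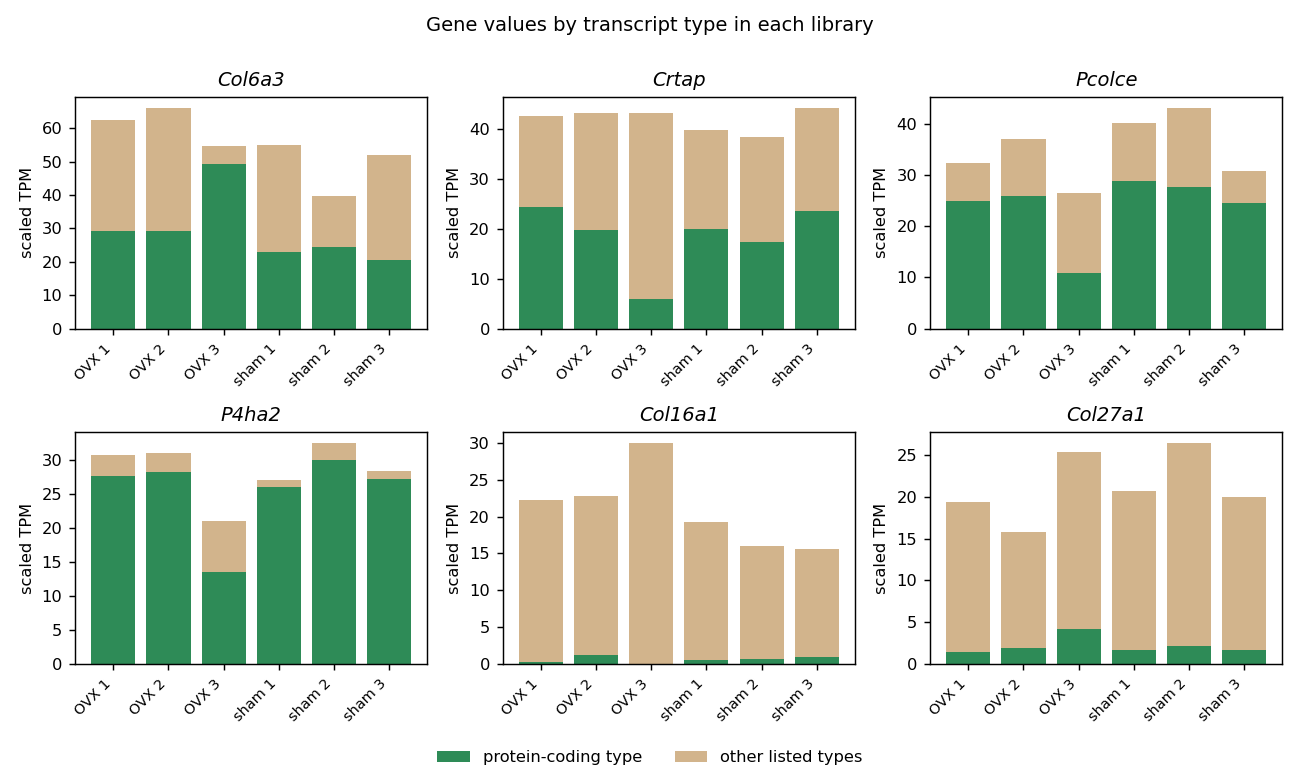
Stacked bars of scaled TPM in each OVX library (left 3 bars) and sham library (right 3 bars) for 6 genes, split into transcripts of protein-coding type (green) and other listed types (tan). OVX replicate 3 is mostly green in Col6a3 and mostly tan in Crtap, and Col16a1 and Col27a1 are mostly tan in every library.

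Ratios within a library do not depend on how libraries are scaled to each other, and 10 of 12 pairs set out could be compared with both genes above 1 TPM throughout. The pairs Col8a1 with Col8a2 and Pcolce with Bmp1 were left out. An exact two-sided permutation test of 3 against 3 libraries cannot go below p = 0.1, and the smallest p adjusted over the 10 pairs was 0.333. The Col1a1 to Col1a2 ratio was 0.101, 0.0963 and 0.0691 in OVX, against 0.161, 0.104 and 0.163 in sham, lower in every OVX library by a mean log2 difference of -0.67 (exact permutation p = 0.1). Sham replicate 2 was close to the OVX values, and with a pseudocount of 1 the difference was -0.44 (exact permutation p = 0.2). The Serpinh1 to Col1a1 ratio was 9.81, 11.1 and 10.6 in OVX, against 5.23, 7.50 and 7.64 in sham, a log2 difference of 0.65 (exact permutation p = 0.1), so the chaperone was higher relative to Col1a1 in every OVX library. That difference was 0.41 with a pseudocount of 1. The P4ha1 to P4ha2 ratio was 0.632, 0.696 and 0.952 in OVX, against 0.619, 0.511 and 0.582 in sham, a log2 difference of 0.39 (exact permutation p = 0.1). OVX replicate 1 barely cleared the sham range there, and the difference was 0.22 without OVX replicate 3.

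For the 2 type IV chains, which assemble in 1 molecule, no difference in proportion was detectable with 3 libraries a group. The Col4a1 to Col4a2 ratio was 0.820, 0.956 and 1.08 in OVX and 0.804, 1.03 and 1.00 in sham, a log2 difference of 0.01 (exact permutation p = 0.9). Among type VI chains the Col6a1 to Col6a2 ratio was 0.785, 0.795 and 0.746 in OVX and 0.882, 0.784 and 0.887 in sham, overlapping, with a log2 difference of -0.13. The P3h1 to Crtap ratio had a log2 difference of 0.66 but overlapped, since the highest sham ratio, 0.189, was above the lowest OVX ratio, 0.166, and the difference was 0.33 without sham replicate 1. Col5a1 to Col5a2, Col6a3 to Col6a1, Col3a1 to Col1a1 and Lox to Col1a1 overlapped as well.

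**Figure D4:**
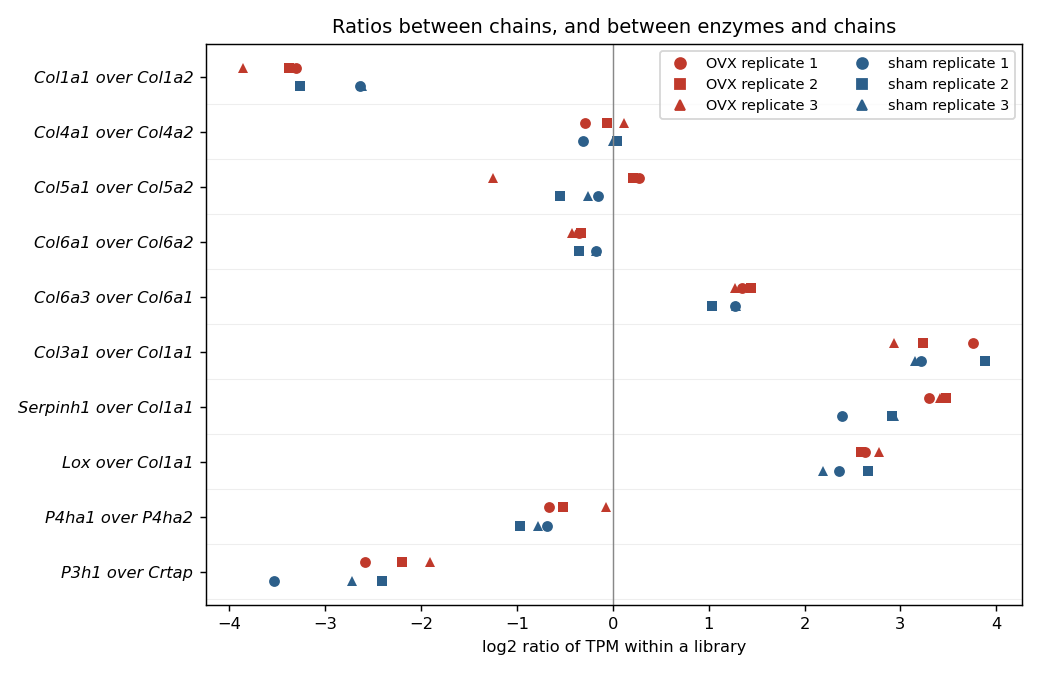
Log2 ratio of TPM between 2 genes of the same library for 10 pairs, with OVX libraries in red (upper row of each pair) and sham libraries in blue (lower row). The groups separate for Col1a1 over Col1a2, Serpinh1 over Col1a1 and P4ha1 over P4ha2, and the Col4a1 over Col4a2 points mix.

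Summed over all 41 genes, the set stood at 459, 466 and 461 scaled TPM in OVX, against 433, 428 and 439 in sham. That gap depends on the scaling: on the TPM as deposited the sums were 458, 469 and 388 in OVX and 453, 425 and 501 in sham, which overlap with a lower mean in OVX. After scaling, collagen chains made up 241 to 253 in OVX and 221 to 235 in sham, and the enzymes and chaperones 207 to 225 in OVX and 198 to 211 in sham. By role the sums ran apart. The beaded filament and network chains summed to 108 to 123 in OVX and 86.7 to 106 in sham. The FACIT chains summed to 27.1 to 36.0 in OVX and 17.7 to 23.9 in sham. Both sums were higher in OVX. The FACIT sum is mostly Col16a1, and nearly all of that gene's value is the 833-base transcript not annotated as coding. The basement membrane chains summed to 19.7 to 22.6 in OVX and 23.3 to 26.8 in sham, lower in OVX. The crosslinking oxidases summed to 32.1 to 34.0 in OVX and 25.9 to 30.3 in sham, mostly Loxl2. The hydroxylases summed to 133.46 to 141.03 in OVX and 121.01 to 132.65 in sham, also higher in OVX. Fibrillar sums overlapped, as did those of the chaperone and propeptide processing genes, 41.8 to 52.4 in OVX and 48.3 to 54.1 in sham. On the TPM as deposited the FACIT sums, 27.1 to 30.2 in OVX and 18.4 to 25.0 in sham, and the basement membrane sums, 19.0 to 20.9 in OVX and 26.6 to 27.3 in sham, kept these directions without overlap. The sums of the beaded filament and network chains, of the oxidases and of the hydroxylases overlapped there. The fibrillar sums were 70.9 to 76.9 in OVX and 83.0 to 98.1 in sham. The chaperone and propeptide processing genes summed to 35.2 to 52.7 in OVX and 53.1 to 55.1 in sham on that scale, also lower in every OVX library.

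The 11 genes below the limit for testing were low in both groups. Besides Col4a5 and Col4a6, P4ha3 was listed at 0 in all libraries. Col14a1, Col22a1, Col24a1, Col25a1, Col26a1, Col8a2, Loxl1 and Loxl4 had means above 0 but at most 0.729, the mean of Loxl4. Among them the transmembrane chain Col25a1 and Col26a1 were at 0 in every OVX library and above 0 in 1 sham library each.

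Partner genes of collagen folding and secretion, 23 of 24 of which are listed, gave a similar picture. Of 20 tested 0 passed the adjusted threshold, 9 were above 0 and 11 below, and the median log2 fold change was -0.08. At an unadjusted p of 0.05, 2 of the 20 were higher and 0 lower, against 3.46% and 3.42% of all genes tested. Every OVX library was above sham for 3 of the 20 and below for 1, against 7.42% and 7.8% of all genes. P3h3, a prolyl 3-hydroxylase family member, was at 5.33, 4.74 and 5.32 scaled TPM in OVX, against 2.93, 2.64 and 3.66 in sham, for a log2 fold change of 0.60 ± 0.17 (limma adjusted p = 0.572). Mia2, whose product helps load bulky cargo such as collagen at exit sites of the endoplasmic reticulum, was at 9.72, 7.18 and 7.35 in OVX, against 5.87, 3.81 and 6.18 in sham, for a log2 fold change of 0.54 ± 0.22. All OVX libraries were above sham for both. Pcolce2, a relative of Pcolce, and Mia3 were picked after their values were seen. Pcolce2 was at 64.7, 60.3 and 30.8 in OVX, against 88.8, 69.4 and 79.5 in sham. It was below sham in every OVX library, with a log2 fold change of -0.66 ± 0.28. Mia3 was at 6.34, 6.51 and 10.3 in OVX, against 6.17, 4.46 and 5.01 in sham. It was above sham in every OVX library, with a log2 fold change of 0.47 ± 0.22. Of 11 collagen receptor and uptake genes 7 are listed and 3 were tested, and 0 passed at an unadjusted p of 0.05. Itgb1, the shared beta subunit of the collagen-binding integrins, was at 25.7, 28.3 and 60.4 in OVX and 22.9, 21.3 and 26.2 in sham. Ddr2, a receptor kinase for fibrillar collagen, averaged 16.7 ± 1.14 in OVX and 14.3 ± 1.99 in sham, and the integrin chain Itga1 averaged 1.22 ± 0.164 in OVX and 1.63 ± 0.179 in sham (SD, n = 3 each).

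Marker genes of macrophages and of other cell types differed between the libraries too. Macrophage markers, 7 listed of 10, summed to 911 to 1349 scaled TPM in OVX and 992 to 1087 in sham. Csf1r was listed at 0 throughout, and Mertk and Adgre1, which encodes F4/80, had means under 1. The 4 tested markers were all above 0. Itgam was at 18.8, 18.5 and 28.2 in OVX, against 11.3, 13.6 and 10.8 in sham (limma adjusted p = 0.527). Cd68 averaged 40.2 in OVX and 34.6 in sham, Lyz2 326 and 274, and Cd14 799 and 711, all overlapping. Itgam, Cd68, Lyz2 and Cd14 were thus detected, while Csf1r, Mertk and Adgre1 were at 0 or under a mean of 1. Which cells the detected ones came from was not tested. Stromal markers without collagens, 11 listed of 12 and none at 0, summed to 20570 to 40406 in OVX, lowest in replicate 3, and 33285 to 36748 in sham. That sum is mostly Mgp and Dcn. Of the 9 tested stromal markers 7 were below 0 and 2 above. Dcn, Pdgfrb, Cxcl12 and Fbln1 were below sham in every OVX library, 4 of the 9, against 7.8% of all genes tested. Osteoblast and osteocyte markers, 5 listed of 12 with 1 at 0, summed to 22.1 to 49.3 in OVX and 19.0 to 25.0 in sham. For endothelial cells only Plvap of 8 markers is listed, at 18.4, 17.2 and 11.0 in OVX and 23.0, 21.9 and 33.3 in sham, below sham in every OVX library as Col4a1 and Col4a2 were. Neutrophil markers, 7 listed of 8 and none at 0, summed to 131950 to 141560 in OVX and 69646 to 89288 in sham. That sum is mostly S100a8 and S100a9, which with Ngp were above sham in every OVX library, while Ltf, Lcn2 and Elane overlapped. Skeletal muscle markers, 6 listed of 6, summed to 126 to 155 in OVX and 195 to 205 in sham, and smooth muscle markers, 4 listed of 6, to 45.1 to 52.4 in OVX and 44.0 to 55.6 in sham. Chondrocyte markers, 8 listed of 8, summed to 883 to 1305 in OVX and 1312 to 1469 in sham. That sum is mostly Chad and Comp, which were below sham in every OVX library, while 5 of the 7 tested markers were above 0 and Col2a1, Sox9 and Hapln1 were above sham in every OVX library. Tendon markers, 4 listed of 5, summed to 78.0 to 130 in OVX and 106 to 137 in sham. The part of any of these cells in the collagen values was not tested. The 7 cartilage collagens that the gene set leaves out summed to 197 to 208 in OVX and 111 to 113 in sham, and the libraries separated for all 7.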

How the data were processed

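RNA of 3 OVX and 3 sham libraries was sequenced. In the table that the authors deposited, each listed transcript has a TPM value in every library. The submitters' processing notes name HISAT2 2.0.5 and featureCounts 1.5.0-p3, and the study's methods name mm10; the sources used here do not say how TPM per transcript were made. The authors' comparison columns (mean level, fold change on the log2 scale, p-values) were not used, and 0 columns of per-sample values were left unmapped. Groups and replicate numbers come from the sample titles.

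TPM were summed over the listed transcripts of a gene and scaled by an unweighted trimmed mean of M values (trimming 30% of M and 5% of A at either end). The factors ran from 0.841 (OVX replicate 3) to 1.14 (sham replicate 3). Of 11815 genes, the 8184 whose mean reached 1 scaled TPM were fitted on log2(scaled TPM + 1) with limma 3.58.1 in R 4.3.3, with a term for group alone, trended empirical Bayes variances and Benjamini-Hochberg adjustment at 0.05. On this scale the change of low genes is understated. The fit was tested on simulated data. TPM keep no counts, so no count model was run.

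Types, lengths and coordinates are from GENCODE M21 on GRCm38 (mm10), where 117 of the 118 member transcripts were found. Promoter windows are from RefSeq, build GRCm38.p6, for 29 of 41 members.

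Members and lists were chosen with earlier results of these data known. Values per library are given for the 15 most abundant members, those at an unadjusted p under 0.05 and those whose groups do not overlap, 18 in all; for partner lists, genes at that p, or the 3 most abundant. Other members that are given per library (Col1a1, P3h1, Col18a1, Col8a1 and Lox) were picked after their values were seen. Alternatives were other scalings, pseudocounts, filters, gene values and weights, a replicate block, no trend and leaving out each library. Protein-coding transcripts only, and member sums on the deposited TPM, were added after the data were seen.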

Additional observations from a re-analysis of the deposited data

How the results depend on the processing

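In all 18 alternatives 0 members passed the adjusted threshold, with a lowest adjusted p between 0.159 (array weights) and 0.976 (without sham replicate 3). Of 321 log2 fold changes of the 18 named members, 313 kept their direction and 8 turned, in 4 genes. Crtap was -0.083 without scaling and -0.45 with protein-coding transcripts only. P4ha2 was 0.069 with array weights and -0.19 (without OVX replicate 2) to 0.073 (without OVX replicate 3) with a library left out. Col27a1 was 0.25 with protein-coding transcripts only and -0.33 (without OVX replicate 3) to 0.0024 (without OVX replicate 2) with a library left out, and Col5a2 was -0.28 (without OVX replicate 3) to 0.046 (without OVX replicate 1), and 0.0013 without OVX replicate 2. The members' median of 0.03 was -0.11 on the TPM as deposited, -0.10 with the highest single transcript and -0.12 with protein-coding transcripts only. Members with libraries that did not overlap numbered 1 higher and 7 lower on the TPM as deposited (3.33% and 23.3%, against 3.57% and 13.1% of all genes). They numbered 6 to 8 higher and 4 to 8 lower with single libraries left out, which leaves fewer libraries to separate for any gene. Without OVX replicate 3 the shares were 26.7% and 26.7% of members, against 13.3% and 13% of all genes. For the other left-out libraries no share of all genes is given, so those counts cannot be set against a background. Over all genes, the count called higher was 0 with a pseudocount of 0.1 and with protein-coding transcripts only, 2 with the highest single transcript, 20 with array weights, which gave OVX replicate 3 a weight of 0.172, and 0 to 7 with a library left out, the most without OVX replicate 3. The count called lower was 7 with array weights and 0 to 3 with a library left out.

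With the highest single transcript the log2 differences of ratios were 0.46 for Col6a3 to Col6a1, -0.59 for Col3a1 to Col1a1, 1.28 for Serpinh1 to Col1a1, 0.67 for Lox to Col1a1 and 1.10 for P4ha1 to P4ha2. Col6a3 to Col6a1 was 0.45 with protein-coding transcripts only, and with a pseudocount of 1 Serpinh1 to Col1a1 was 0.41 and Lox to Col1a1 0.063. Where no cause is stated, the cause was not tested. No pairing by replicate number was seen: deviations of same-numbered libraries correlated at -0.06, -0.13 and -0.25 for numbers 1, 2 and 3. With 3 libraries per group, each measured from its own group mean, this check cannot exclude a pairing. With the replicate block 0 genes were called higher and 0 lower, and of the members 1, P3h1, had an unadjusted p under 0.05. Depth is unknown for TPM, and 3 libraries per group limit precision.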
